A study of Homo sapiens with 14 samples.

Results

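CHP-134 is a human neuroblastoma cell line with an amplified MYCN gene, and 7 of the 14 RNA-seq libraries of the series bear on how its control derivative compared with the parental line. The 3 EGFP libraries came from CHP-134 cells carrying a lentiviral, doxycycline-inducible EGFP construct (pInducer20, selected with G418), grown in tetracycline-approved serum and given 1 μg/ml doxycycline for 3 days. The 4 DMSO libraries came from parental CHP-134 cells, grown in normal serum and given DMSO for 18 hours. The 3 OmoMYC libraries (the same kind of line with a dominant-negative MYC protein) and the 4 dTAG47 libraries (parental cells, 500 nM for 18 hours) are used only to set levels side by side. All 7 libraries share the MYCN amplification, total RNA extraction and ribosomal RNA depletion. The engineered line, its construct and selection, doxycycline, the serum, the DMSO and the library run differ together between the groups, and so does the set of gene identifiers that was counted, so their parts cannot be told apart. The genes are the 17227 identifiers present in both count tables, of 19726 in either. EGFP itself has no row in the counts. The methods of the study call the libraries of each group biological replicates, and the labels do not say how they were separated. P-values therefore measure the spread between these libraries, taken as equal replicates of their group. They were not equally close. The chi-square per degree of freedom between the counts of 2 libraries was 2.65 for DMSO replicates 1 and 2. It was 3.16 for DMSO replicates 3 and 4, and 8.74 to 11.3 for the other DMSO pairs. EGFP replicates 2 and 3 had 8.01, and the pairs of each with EGFP replicate 1 had 21.2 and 42.5.

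Neuroblastoma arises from cells of the sympathoadrenal lineage of the neural crest, and its lines express neuronal genes under transcription factors such as PHOX2A, HAND2 and ISL1 (the adrenergic state). Some lines or cells instead express PRRX1, YAP1 and extracellular matrix genes (the mesenchymal state). Doxycycline-inducible vectors are controlled by adding doxycycline, a tetracycline that can also slow protein synthesis on mitochondrial ribosomes. In the study the inducible EGFP line, given the same drug, was the control of the OmoMYC line. Here that control is compared with the DMSO-treated parental line.

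Gene levels are given as CPM, the counts of a gene scaled to the size of its library with TMM factors, and differences as log2 fold changes of EGFP over DMSO from edgeR's quasi-likelihood test, with p-values adjusted by the Benjamini-Hochberg method over all 14093 genes tested and called at 0.05. Total counts were 28060817 to 32001315 in the EGFP libraries and 40861430 to 51199800 in the DMSO libraries. Of the genes tested, 6720 were called (47.7%), 3463 of them higher (24.6%) and 3257 lower (23.1%) with EGFP and doxycycline. Past 2-fold there were 1400 (9.93%), of which 590 were higher (4.19%) and 810 lower (5.75%). The EGFP and DMSO libraries did not overlap for 49.3% of the genes tested. The largest falls were of genes at or near 0 in both engineered groups: 210 genes with at least 1 CPM in parental cells stood under 2% of that level in both the EGFP and the OmoMYC libraries, and 0 genes did so in the opposite direction. ACTG1, the cytoplasmic gamma actin, had 2626, 2677, 2979 and 2844 CPM in the DMSO libraries and 0, 0.0705 and 0 CPM in the EGFP libraries. KMT2A, a histone methyltransferase, had 442, 433, 414 and 451 CPM with DMSO and was at 0 in every EGFP library, and HCFC1 and RASL10B were at 0 there as well. The engineered table also holds 583 identifiers that the parental table lacks, 433 of them outside the primary-assembly annotation, and 369 carry the symbol of a gene that is also listed in the parental table. Genes lost in this way, genes with a copy under another identifier, genes without a place in the annotation and genes within 500 kb of a lost or copied gene were therefore set aside (1483 of the genes tested). Of these, 252 were higher (17.0%) and 613 lower (41.3%), a total of 58.3%, and past 2-fold 39 were higher (2.63%) and 406 lower (27.4%), a total of 30.0%, with 59.9% of them not overlapping. A gene truly silent in the engineered cells cannot be told apart from a lost one.

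Of the 12610 genes left, 5855 were called (46.4%), 3211 of them higher (25.5%) and 2644 lower (21.0%), and past 2-fold 955 were called (7.57%), of which 551 were higher (4.37%) and 404 lower (3.20%). The groups did not overlap for 48.0% of these genes, and the median of the absolute log2 fold change was 0.23, and 0.45 among those called. Gene lists below are given as members counted, which are those that passed the low-count filter and were not set aside, and members are called at the same threshold. The plot of gene levels shows part of the set-aside genes, the lost ones among them, as a cloud under the diagonal with no matching cloud above it.

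**Figure D1:**
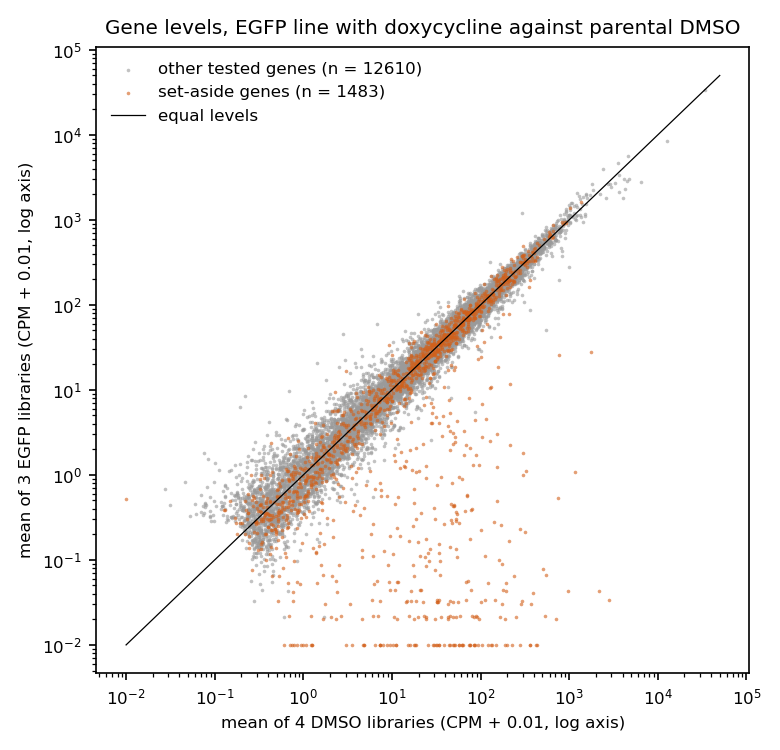
Mean level of each tested gene in the 4 DMSO libraries (horizontal) and the 3 EGFP libraries (vertical), in CPM plus 0.01 on log axes, with the line of equal levels. The 1483 set-aside genes (orange) reach down to 0 CPM with EGFP at DMSO levels of up to 2782 CPM, while the other 12610 genes (grey) lie on both sides of the line.

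IGFBP5, NEUROG2 and NEUROD6 were among the 12 largest falls that were left once set-aside genes, genes inside others and genes sharing sequence were removed. IGFBP5, a secreted protein that binds insulin-like growth factors (chr2:217536828-217560272, GRCh37), had 48.7, 49.2 and 54.5 CPM in the EGFP libraries and 539, 547, 556 and 548 CPM in the DMSO libraries (log2 fold change -3.43 ± 0.06 (SE), adjusted p = 1.73e-12). The OmoMYC libraries were lower still, at 14.7 to 19.9 CPM, and the dTAG47 libraries at 478 to 535 CPM lay near the DMSO level. Its relatives did not share the fall: IGFBP4 was higher (0.90), and IGFBP2 had a log2 fold change of 0.03 that did not pass the test. NEUROG2, a proneural basic helix-loop-helix factor, had 2.09, 2.93 and 2.68 CPM with EGFP and 27.6, 26.8, 27.9 and 28.9 CPM with DMSO (log2 fold change -3.44 ± 0.11 (SE), adjusted p = 2.03e-10). NEUROD4, a factor of the same family, had 9.45, 7.9 and 6.18 CPM against 29.5, 30.0, 27 and 25.8 CPM (log2 fold change -1.83 ± 0.13 (SE), adjusted p = 4.38e-07). NEUROD6 had 1.14, 1.23 and 1.26 CPM against 6.32, 5.17, 5.17 and 5.08 CPM, with no overlap, as the naming rule required. NEUROD1, the member with the highest count, had 484, 488 and 469 CPM against 467, 473, 468 and 448 CPM, and its difference did not pass the test (log2 fold change 0.05 ± 0.05 (SE), adjusted p = 0.422). NEUROG1, at 0.246, 0.317 and 0.102 CPM against 0.355, 0.349, 0.279 and 0.459 CPM, overlapped between the groups (log2 fold change -0.71 ± 0.38 (SE), adjusted p = 0.148).

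Of the axon guidance genes, 3 receptors fell furthest. PLXNA2, a semaphorin receptor, had 7.02, 7.37 and 9.57 CPM with EGFP and 45.8, 45.9, 47.2 and 48 CPM with DMSO (log2 fold change -2.55 ± 0.10 (SE), adjusted p = 2.47e-09). PLXNA4 fell by 1.83 and DCC, the netrin receptor, by 2.28 on the log2 scale. The list as a whole leaned upward: 30 of 58 members counted (73 listed) were higher and 13 lower, with a median of 0.33 (25.5% higher and 21.0% lower among all genes counted, median 0.02). EPHA7, EPHA5 and EPHA4 (ephrin receptors), SEMA5B, SEMA6B and UNC5C were higher, by 0.86 to 1.42. After the trend with GC content was removed, the median was 0.08 and 27 members were higher and 18 lower. With that trend removed, 30.8% of all genes counted were higher and 31.0% lower, which are the shares to hold against every count given below after the GC trend was removed.

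Neuronal differentiation genes were lower as groups. Of 26 neurite and cytoskeleton genes counted (33 listed), 18 were lower and 3 higher, with a median of -0.29. DCX, a microtubule protein of migrating neurons, had 112, 105 and 104 CPM with EGFP and 321, 317, 296 and 301 CPM with DMSO (log2 fold change -1.53 ± 0.06 (SE), adjusted p = 1.59e-09), with the OmoMYC libraries between them at 189.5 to 215 CPM. GAP43, a growth cone protein, had 23.6, 25.5 and 25.6 CPM against 53.4, 56, 57.2 and 54.7 CPM (log2 fold change -1.15 ± 0.06 (SE), adjusted p = 6.54e-08). NEFM, a neurofilament subunit, was also under the DMSO range in every EGFP library (-1.21), although 30.0% of its 31-base stretches occur in other genes. STMN4 fell with EGFP (3.33, 4.65 and 3.53 CPM against 9.94, 10.7, 10.8 and 11 CPM), while the OmoMYC libraries stood above DMSO at 18 to 21.4 CPM. Of the 3 members that were higher, DPYSL5 had the largest difference, at 0.39.

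Of 27 synaptic vesicle genes counted (35 listed), 15 were lower and 6 higher, with a median of -0.23. SV2B, a vesicle glycoprotein, had 6.56, 5.36 and 5.84 CPM with EGFP and 18.4, 19.6, 18.1 and 17.7 CPM with DMSO (log2 fold change -1.64 ± 0.09 (SE), adjusted p = 5.87e-08), and SYT4, a synaptotagmin, 17.9, 16.5 and 14.8 CPM against 43.1, 43, 38.6 and 35.9 CPM (log2 fold change -1.29 ± 0.09 (SE), adjusted p = 7.23e-07). AMPH, which works in endocytosis at the synapse, was the exception, with 10.3, 11.1 and 9.81 CPM against 3.95, 3.95, 4.1 and 4.03 CPM. Of 11 neuropeptide and granin genes counted (27 listed), 8 were lower and 2 (NPY and NMU) higher, with a median of -0.35. VGF, a secretory granule protein, had 33.2, 37.5 and 48.7 CPM against 81.4, 81, 90.5 and 85.9 CPM (log2 fold change -1.09 ± 0.11 (SE), adjusted p = 1.57e-05). ADCYAP1, the precursor of the peptide PACAP, had 0.493, 0.74 and 0.407 CPM against 5.95, 6.5, 6.61 and 5.1 CPM (log2 fold change -3.46 ± 0.19 (SE), adjusted p = 6.83e-08), with 11.2% of its 31-base stretches found in other genes. For each gene of these lists given here by its values, the EGFP and DMSO libraries did not overlap, as the naming rule required. The groups did not overlap for 48.0% of all genes counted.

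The largest rises were in genes at low levels in parental cells. GTSF1, a factor of the piRNA pathway known from the germ line, had 8.31, 9.24 and 7.6 CPM in the EGFP libraries and 0.222, 0.196, 0.177 and 0.239 CPM in the DMSO libraries (log2 fold change 5.29 ± 0.15 (SE), adjusted p = 1.12e-10). CALD1, the actin-binding caldesmon, had 7.36, 5.82 and 5.6 CPM against 0.0666, 0.284, 0.279 and 0.0997 CPM (log2 fold change 5.12 ± 0.27 (SE), adjusted p = 3.86e-08), and the OmoMYC libraries had 5.3 to 5.88 CPM. PDLIM3, a cytoskeletal LIM protein, had 45.8, 46.2 and 46.1 CPM against 3.02, 2.42, 2.51 and 3.37 CPM (log2 fold change 4.02 ± 0.10 (SE), adjusted p = 3.04e-11). CDH11, a mesenchymal cadherin, had 9.73, 9.17 and 10.3 CPM against 0.888, 0.589, 0.861 and 0.379 CPM (log2 fold change 3.86 ± 0.19 (SE), adjusted p = 1.70e-08). MRC2, a collagen-binding endocytic receptor, had 51.8, 57.4 and 67.3 CPM against 6.39, 6.26, 6.73 and 8.06 CPM (log2 fold change 3.10 ± 0.11 (SE), adjusted p = 8.79e-10). EYA4, a transcriptional cofactor, had 23.2, 22.2 and 21.8 CPM against 3.42, 2.86, 2.63 and 2.99 CPM, with 9.33 to 10.7 CPM in the OmoMYC libraries. ABCB1, the multidrug efflux pump, had 14.4, 12.7 and 12 CPM against 1.73, 2.01, 1.82 and 1.58 CPM (log2 fold change 2.87 ± 0.11 (SE), adjusted p = 1.71e-09). KHDRBS2, an RNA-binding protein, had 4.56, 4.65 and 4.34 CPM with EGFP, 0.843, 0.545, 0.633 and 0.518 CPM with DMSO and 78.6 to 79.8 CPM with OmoMYC.

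**Figure D2:**
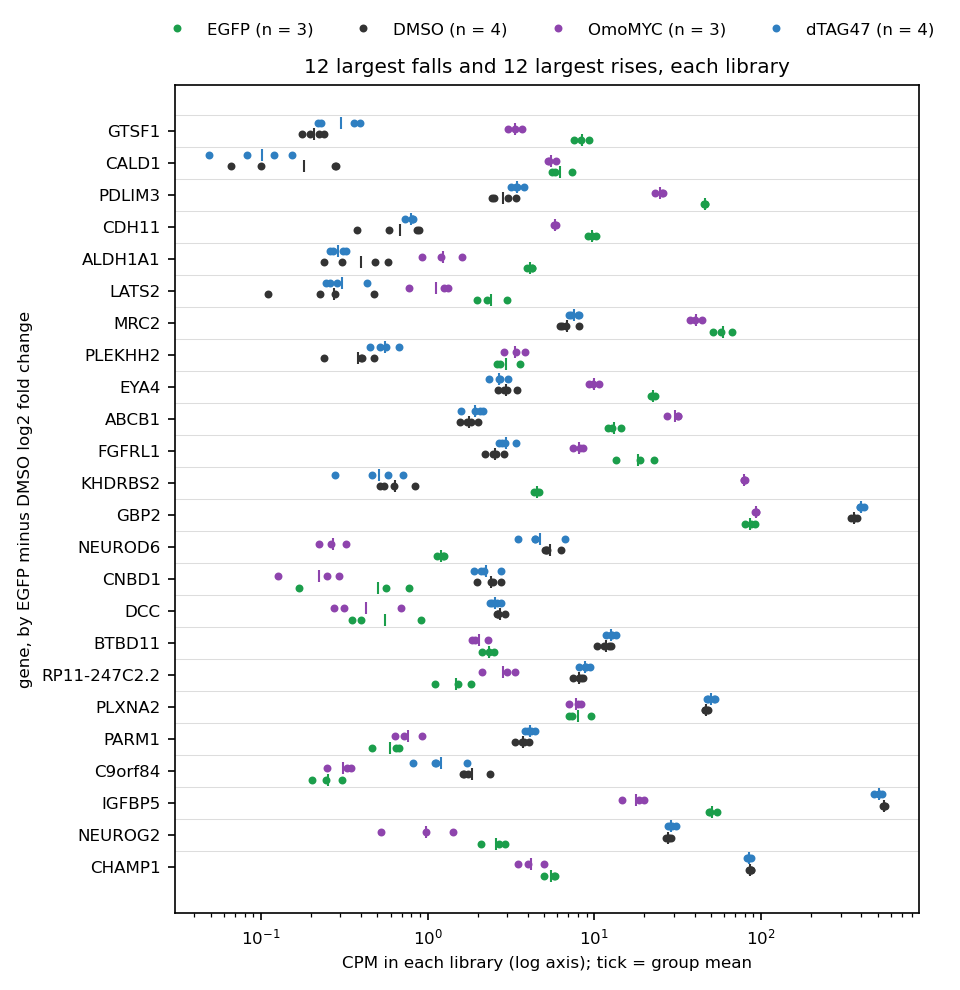
CPM in each of the 14 libraries (dots, log axis) for the 12 genes with the largest falls and the 12 with the largest rises outside the set-aside genes, ordered by the EGFP minus DMSO log2 fold change, with a tick at each group mean. In every gene shown the 3 EGFP libraries lie apart from the 4 DMSO libraries, as the naming rule required.

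CHAMP1, a protein of chromosome segregation, had the largest fall of the genes kept, with 5.7, 5.78 and 4.99 CPM in the EGFP libraries and 86.7, 87, 84.1 and 86.1 CPM in the DMSO libraries (log2 fold change -3.97 ± 0.08 (SE), adjusted p = 3.26e-12). Its level in the OmoMYC libraries, 3.49 to 4.96 CPM, was nearly as low as with EGFP, as is the case for lost genes, and whether its reads were counted in full was not tested. GBP2, an interferon-inducible GTPase, had 91.6, 86.8 and 80.2 CPM against 376, 360.2, 349 and 359 CPM (log2 fold change -2.07 ± 0.06 (SE), adjusted p = 1.68e-10). The interferon response list was called in both directions: of 25 members counted (40 listed) 7 were higher and 8 lower, with a median of -0.04. Its most abundant members, IFI44 and IFI44L, fell as GBP2 did (-0.60 and -0.86). Their means were 250 and 89.3 CPM with EGFP against 378 and 162 CPM with DMSO. The largest rise was that of USP18 (2.96), at 1.15 CPM against 0.142 CPM in the means.

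Part of the mesenchymal and matrix genes were higher, mostly from low levels. Of 19 mesenchymal genes counted (25 listed), 8 were higher and 2 lower, with a median of 0.02 that was -0.09 after the GC trend was removed. PRRX1, a transcription factor of the mesenchymal state, had 13.2, 10.9 and 10.9 CPM with EGFP and 4.35, 4.14, 3.6 and 3.91 CPM with DMSO (log2 fold change 1.55 ± 0.10 (SE), adjusted p = 3.60e-07). YAP1, a transcriptional coactivator of the Hippo pathway with 13.2% of its 31-base stretches in other genes, had 8.1, 7.76 and 7.43 CPM against 2.51, 2.27, 2.38 and 2.59 CPM (log2 fold change 1.67 ± 0.10 (SE), adjusted p = 9.26e-08), with 2.86 to 3.91 CPM in the OmoMYC libraries, nearer to DMSO. SNAI2 and FN1 were higher as well (1.26 and 0.52), FOSL2 was lower (-1.58), and TWIST1, by count the most abundant of the list, had a log2 fold change of -0.08 that did not pass the test. TGFBR2 and TGFBI, a receptor and a target of TGF-beta signalling, had large fold changes (4.07 and 3.07) at under 0.5 CPM in both groups.

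Of 48 collagens, laminins and other matrix genes counted (62 listed), 23 were higher and 5 lower, with a median of 0.37. COL1A1, the main chain of type I collagen, had 17.7, 20.3 and 24.6 CPM with EGFP and 3.88, 3.95, 4.3 and 3.29 CPM with DMSO (log2 fold change 2.44 ± 0.13 (SE), adjusted p = 2.95e-08). NID1, which links laminin and collagen in basement membranes, had 23.1, 25.7 and 26.5 CPM against 4.22, 4.97, 4.3 and 4.81 CPM (log2 fold change 2.45 ± 0.09 (SE), adjusted p = 9.01e-10). COL4A1, of basement membrane collagen, had 25.1, 23.4 and 27.8 CPM against 9.03, 7.81, 8.84 and 8.79 CPM (log2 fold change 1.56 ± 0.08 (SE), adjusted p = 4.80e-08). TNC (tenascin C) was the largest exception, with 6.25, 5.54 and 6.55 CPM against 19.5, 18.8, 20.2 and 22.1 CPM (log2 fold change -1.72 ± 0.09 (SE), adjusted p = 5.46e-08). Of 28 cadherins and protocadherins counted (88 listed), 14 were higher and 3 lower (median 0.40, and 0.25 after the GC trend was removed), PCDH10 among them (34.3, 37.6 and 37.8 CPM against 9.65, 10.9, 10.4 and 9.99 CPM). Of 15 genes of the SRF and YAP programmes counted (19 listed), 8 were higher and 1 lower (median 0.55), with CNN2 (1.68, 34.7% of its 31-base stretches in other genes), LATS2 (3.12) and CNN1 (1.57) furthest, whereas the YAP targets CTGF and CYR61 did not pass the test (0.58 and -0.21).

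The adrenergic genes were called in both directions, and the lean of the list depended on the processing. Of 18 members counted (23 listed), 6 were higher and 7 lower, with a median of -0.08. After the GC trend was removed, 6 were higher and 10 lower, with a median of -0.24. The median was 0.09 with DMSO replicates 1 and 2 only, and -0.15 with DMSO replicates 3 and 4 only. PHOX2A, a core lineage factor, had a log2 fold change of 0.06 that did not pass the test. HAND2 and ISL1 were lower (-0.57 and -0.52), and TBX2 was higher, at 118, 143 and 174 CPM against 60.0, 60.2, 68.3 and 65.9 CPM (log2 fold change 1.19 ± 0.11 (SE), adjusted p = 6.72e-06). The summed level of the 10 fixed adrenergic markers was 1526 to 1825 CPM in the EGFP libraries and 1664 to 1773 CPM in the DMSO libraries. That of 8 mesenchymal markers was 458 to 491 CPM against 466 to 476 CPM. Most of it came from TWIST1 (278 CPM in the EGFP mean, 294 CPM with DMSO) and VIM (134 and 138 CPM), a set-aside gene. PRRX1, SNAI2, YAP1 and FN1 were higher, and TWIST1, VIM, CD44 and WWTR1 did not pass the test, so the sum hides the rise of the less abundant members. The summed level of 5 fibroblast markers was 32.9 to 42.0 CPM against 11.9 to 13.2 CPM, nearly all of it from COL1A1 and COL1A2, with COL3A1, DCN and LUM under 0.4 CPM in the mean of either group. The part of other cells in the rise of matrix genes was not tested. Summed Schwann cell markers (4 genes) stood at 4.96 to 7.81 CPM against 7.75 to 8.39 CPM with S100B at no more than 3 counts in any library, and endothelial, leukocyte and epithelial markers summed to at most 2.02 CPM in any library.

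Growth factor receptors shifted towards higher levels. Of 23 neurotrophin, GDNF and related receptor and ligand genes counted (28 listed), 13 were higher and 4 lower, with a median of 0.38. NGFR, the low-affinity neurotrophin receptor, had 17.8, 20.3 and 23.2 CPM with EGFP, 1.35, 1.59, 1.19 and 1.58 CPM with DMSO and 411 to 464 CPM with OmoMYC (log2 fold change 3.83 ± 0.13 (SE), adjusted p = 3.90e-10 for EGFP against DMSO), and 10.1% of its 31-base stretches occur in other genes. NTRK2, the receptor of BDNF, rose from 0.51, 1.0, 0.582 and 0.897 CPM to 2.83, 2.93 and 2.1 CPM (log2 fold change 1.79 ± 0.23 (SE), adjusted p = 8.28e-05). PDGFRB had 44.1, 44.5 and 49.8 CPM against 17.6, 16.9, 18.1 and 17.7 CPM (log2 fold change 1.39 ± 0.07 (SE), adjusted p = 1.88e-08), and EGFR 30.9, 30.0 and 32 CPM against 15.6, 14.7, 14.1 and 14.2 CPM (log2 fold change 1.08 ± 0.07 (SE), adjusted p = 1.97e-07). RET, the GDNF receptor kinase, was higher at 1.05, 0.317 and 0.95 CPM against 0.244, 0.109, 0.127 and 0.199 CPM. ALK, a receptor kinase often studied in neuroblastoma, was lower (-0.41).

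Notch genes leaned upward. Of 19 members counted (25 listed), 11 were higher and 1 lower, with a median of 0.36 (0.20 after the GC trend was removed, with 9 higher and 3 lower). NOTCH3 had 16.5, 18 and 21.7 CPM with EGFP and 4.57, 3.51, 3.67 and 4.13 CPM with DMSO (log2 fold change 2.23 ± 0.12 (SE), adjusted p = 4.00e-08), and NOTCH1 11, 11.2 and 14.8 CPM against 4.42, 4.01, 5.57 and 5.16 CPM (log2 fold change 1.36 ± 0.14 (SE), adjusted p = 1.21e-05). The ligand DLL1 and the target HEYL were higher (1.24 and 0.96), while the targets HES1 and HEY1 had log2 fold changes of 0.14 and 0.03 that did not pass the test. DLK1, a non-canonical ligand and imprinted gene, was the member that fell, with 25.3, 31.8 and 32.7 CPM against 89.8, 93.1, 103 and 96.9 CPM (log2 fold change -1.68 ± 0.09 (SE), adjusted p = 6.50e-08). The OmoMYC libraries had 26.6 to 28.3 CPM, much like EGFP.

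Of 14 genes of the retinoic acid response counted (17 listed), 9 were higher and 3 lower, with a median of 0.85. CRABP2, a binding protein that carries retinoic acid to its receptor, had 43.1, 49.7 and 53.7 CPM with EGFP and 13, 12.4, 16 and 14.5 CPM with DMSO (log2 fold change 1.80 ± 0.10 (SE), adjusted p = 6.61e-08). CRABP1, RARG and RARA were also higher (1.39, 1.09 and 0.74, CRABP1 with 37.9% of its 31-base stretches in other genes), and ALDH1A1, which makes retinoic acid from retinal, had 3.94, 4.23 and 4.21 CPM against 0.577, 0.305, 0.481 and 0.239 CPM (log2 fold change 3.37 ± 0.22 (SE), adjusted p = 2.36e-07). RARRES1 and NRIP1 were lower (-1.41 and -0.61), and RARB, a classic target, had a log2 fold change of -0.32 that did not pass the test. Of 19 HOX genes counted (39 listed), 9 were higher and 0 lower (median 0.33, and 0.19 after the GC trend was removed), among them HOXA13 (1.99) and HOXD10 (1.75). Of 41 core MYC targets counted (50 listed), 7 were higher and 11 lower, with a median of -0.04.

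Genes of the ATF4 pathway rose in part. ATF4 is a transcription factor whose translation increases when amino acids are short or mitochondria are impaired, and its targets make and import amino acids. Of 35 members counted (40 listed), 18 were higher and 6 lower, with a median of 0.21. CHAC1, a glutathione-degrading enzyme, had 4.46, 5.25 and 5.91 CPM with EGFP and 0.732, 0.894, 0.911 and 1.44 CPM with DMSO (log2 fold change 2.37 ± 0.20 (SE), adjusted p = 2.40e-06). SLC7A11, the cystine importer, had 10.5, 8.74 and 8.11 CPM against 3.08, 2.55, 3.87 and 2.77 CPM (log2 fold change 1.58 ± 0.14 (SE), adjusted p = 5.43e-06). PHGDH, the first enzyme of serine synthesis, had 96.1, 107 and 119 CPM against 43.4, 39.8, 43.7 and 44 CPM (log2 fold change 1.33 ± 0.08 (SE), adjusted p = 9.76e-08), PCK2 30.9, 34.7 and 36.1 CPM against 15.6, 16.1, 17.3 and 16.9 CPM, and ASNS, asparagine synthetase, 173, 151 and 137 CPM against 85.2, 87, 86.7 and 83 CPM (log2 fold change 0.85 ± 0.07 (SE), adjusted p = 3.98e-06). Of the 31-base stretches of ASNS 99.5% occur in other genes, and of those of ATF4 35.6%. ATF4 mRNA was itself higher, at 241, 267 and 270.3 CPM against 151, 154, 163 and 163 CPM (log2 fold change 0.72 ± 0.06 (SE), adjusted p = 2.59e-06). TRIB3, SLC7A5, SLC3A2 and MTHFD2, other targets, had log2 fold changes of -0.05 to 0.11 that did not pass the test, and STC2 was lower (6.65, 9.13 and 8.82 CPM against 25.8, 28.2, 26.2 and 24.2 CPM). OmoMYC libraries had 4.73 to 5.84 CPM of CHAC1 and 86.7 to 96.4 CPM of ASNS, the first at the EGFP level and the second near DMSO.

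The promoters of these genes were searched for TGATGNAA, the core of the element that ATF4 binds with C/EBP partners. Both strands of the 250 bases before a single start site per gene were covered (RefSeq, GRCh38.p14), and other start sites were not. The motif was found in 4 of the 15 promoters matched for members that were higher (26.7%), and in 3.19% of 27305 promoters in all. It was found in 0 of 6 among members that were lower and in 0 of 9 among those not called. The 4 matches are shown with 30 bases each, 5′ to 3′ on the gene's strand and the match in capitals, because they are all the matches found among the members. A match is a string of letters and not a measured binding site.
CHAC1 (chr15:40953251-40953280, + strand): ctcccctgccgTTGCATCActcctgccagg
ASNS (chr7:97872458-97872487, - strand): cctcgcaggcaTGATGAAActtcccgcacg
ATF3 (chr1:212565205-212565234, + strand): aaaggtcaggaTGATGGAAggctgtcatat
AARS (chr16:70289675-70289704, - strand): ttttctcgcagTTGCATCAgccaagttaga
ATF3, a stress-induced factor, had 20.0, 22.6 and 22.2 CPM with EGFP and 14.6, 15.5, 14.6 and 14.6 CPM with DMSO (log2 fold change 0.55 ± 0.07 (SE), adjusted p = 1.00e-04), and AARS, the alanyl-tRNA synthetase, had a log2 fold change of 0.53. PHGDH, SLC7A11 and PCK2 rose without the match in this window.

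Chaperones and other stress genes of the endoplasmic reticulum were called lower or not called, apart from PDIA6. Of 14 such genes counted (16 listed), 6 were lower and 1 higher, with a median of -0.16, and 10 were lower after the GC trend was removed. Among them, HSP90B1, CALR, PDIA4, SDF2L1, CRELD2, EDEM1 and SEL1L did not pass the test. HSPA5, the chaperone BiP, had 283, 310.4 and 313 CPM with EGFP and 389.8, 403, 404 and 406 CPM with DMSO (log2 fold change -0.41 ± 0.05 (SE), adjusted p = 1.04e-04), and DNAJB9, its co-chaperone, had 21.5, 18.1 and 15.6 CPM against 43.3, 46.3, 41.2 and 37.2 CPM (log2 fold change -1.19 ± 0.11 (SE), adjusted p = 6.44e-06). Of 10 heat shock genes counted (15 listed), 5 were lower and 1 (HSP90AB1) higher. Of 23 hypoxia genes outside glycolysis counted (25 listed), 11 were lower and 3 higher, with a median of -0.29, although EGLN3, an oxygen sensor and target, was higher (19.2, 18.8 and 21.3 CPM against 5.99, 4.67, 5.87 and 5.18 CPM). Of 15 NRF2 targets counted (20 listed), which answer oxidative stress, 8 were higher and 1 lower (median 0.34), HMOX1 among them (1.13).

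All 13 protein-coding genes of mitochondrial DNA were lower in the EGFP mean, and 11 passed the test (21.0% of all genes counted were called lower). They encode subunits of the respiratory chain and are translated by mitochondrial ribosomes. Their median log2 fold change was -0.78, and -0.47 after the GC trend was removed, with 8 lower. MT-ND4, a complex I subunit, had 2191, 3072 and 2998 CPM with EGFP and 6105, 6384, 6834 and 6593 CPM with DMSO (log2 fold change -1.23 ± 0.10 (SE), adjusted p = 2.86e-06). MT-CO1, a complex IV subunit, had 8073, 8972 and 8705 CPM against 12070.0, 12726, 13293 and 12816 CPM (log2 fold change -0.57 ± 0.06 (SE), adjusted p = 1.00e-05). MT-ATP8 and MT-ND4L, which overlap MT-ATP6 and MT-ND4 on the mitochondrial genome, had the largest falls (-1.95 and -1.84). MT-ND6, the member read from the other strand, had 179.5, 822 and 815 CPM against 845, 912, 921 and 911 CPM and did not pass the test (log2 fold change -0.57 ± 0.48 (SE), adjusted p = 0.371). EGFP replicate 1 was the lowest of the 3 for every member except MT-CO3 and MT-ND3, with MT-CYB at 1481, 2862 and 3007 CPM in the 3 libraries, and without it the list's median was -0.64 with 12 members lower. The mitochondrially encoded genes took 2.54% to 3.37% of the counts in the EGFP libraries, 4.16% to 4.54% in the OmoMYC libraries and 4.74% to 5.24% in the DMSO libraries. In the OmoMYC libraries MT-ATP8 was also low (221 to 252 CPM), while MT-CYB was above DMSO (3943 to 4145 CPM against 2712, 2891, 3127 and 3036 CPM). These genes have copies in nuclear DNA, so reads can be shared with them, and 11 of the 13 share over 10% of their 31-base stretches with other genes.

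The nuclear genes of the respiratory chain and of the mitochondrial ribosome were called about as often higher as lower in the main fit. After the GC trend was removed, they were called higher more often than lower. Of 62 nuclear genes of the respiratory chain counted (76 listed), 15 were higher and 14 lower, with a median of -0.05, and 25 and 10 after the GC trend was removed. Of 68 mitochondrial ribosome genes counted (77 listed), 17 were higher and 12 lower, with a median of 0.03, and 31 and 13 after the GC trend was removed. Mitochondrial chaperones and proteases, markers of the mitochondrial stress response, had 5 of 15 higher and 2 lower. LONP1 and CLPP, proteases of the matrix, were higher (0.33 and 0.38), and HSPE1, a chaperonin subunit, was lower, at 103, 62.7 and 44.6 CPM against 155, 150.3, 144 and 132 CPM, but it lies inside a gene of the opposite strand and shares 35.4% of its 31-base stretches with other genes.

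**Figure D3:**
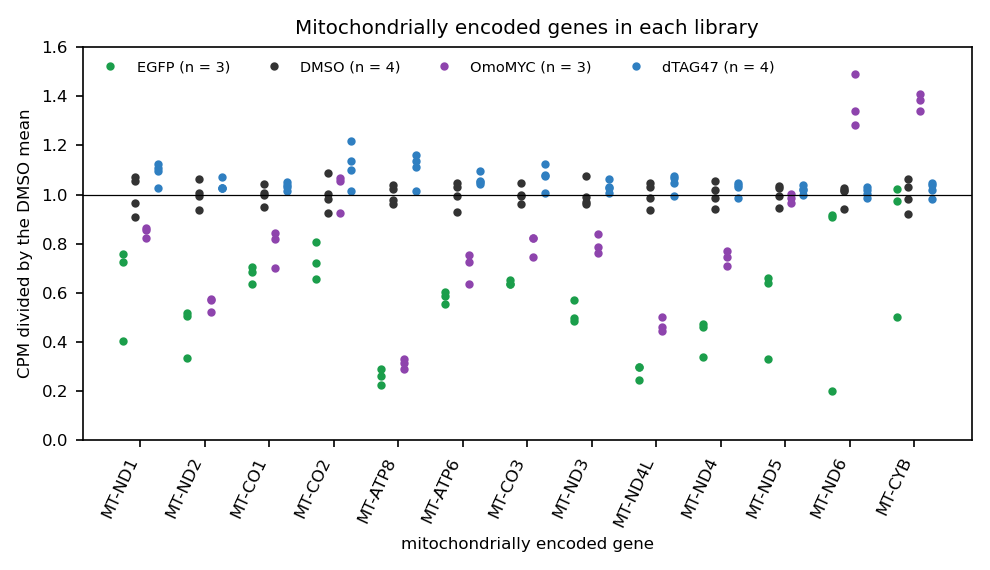
CPM of each mitochondrially encoded gene in each of the 14 libraries, divided by the mean of the 4 DMSO libraries (1 on the vertical axis), in the order of the genes on mitochondrial DNA. The EGFP dots lie under 1 for all genes from MT-ND1 to MT-ND5, and for MT-ND6 and MT-CYB 1 EGFP library lies far under the other 2.

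Mitotic genes that were called were mostly higher, by small amounts. Of 56 G2/M genes counted (62 listed), 33 were higher and 2 lower, with a median of 0.24, and none was past 2-fold. CDC25B, a phosphatase that starts mitosis, had 128, 138 and 151 CPM with EGFP and 73.3, 73.3, 79 and 80.0 CPM with DMSO (log2 fold change 0.87 ± 0.07 (SE), adjusted p = 1.67e-06). CDC20, an activator of the anaphase-promoting complex with 23.6% of its 31-base stretches in other genes, had 143, 158 and 172 CPM against 95.9, 94.6, 104 and 101 CPM (log2 fold change 0.67 ± 0.07 (SE), adjusted p = 1.48e-05), and PTTG1 (securin) 103, 104 and 93.9 CPM against 60.6, 61.3, 64.9 and 61.1 CPM (log2 fold change 0.69 ± 0.06 (SE), adjusted p = 3.67e-06). TOP2A and CENPF, the most abundant of the list by count, rose by less, at 0.30 and 0.34. Without EGFP replicate 1, 31 members were higher and 6 lower (median 0.18), and with DMSO replicates 3 and 4 only, 23 were higher and 1 lower. Of 40 S phase genes counted (45 listed), 10 were higher and 10 lower, with a median of -0.06, and E2F1 was lower (-0.38).

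The genes at the centre of the series stayed near their parental level in some cases and moved in others. MYCN had 2350.3, 2786 and 2858 CPM with EGFP and 2708, 2714, 2896 and 2720.2 CPM with DMSO, and its difference did not pass the test (log2 fold change -0.05 ± 0.07 (SE), adjusted p = 0.568). MYC was at 0.599 and 0.582 CPM in the means (log2 fold change 0.03 ± 0.23 (SE), adjusted p = 0.934), against 494 to 509.6 CPM in the OmoMYC libraries, whose transgene derives from MYC. MAX, the partner of both, was lower (53.9, 52.3 and 51.1 CPM against 67.5, 71.4, 72 and 70.7 CPM, log2 fold change -0.42 ± 0.06 (SE), adjusted p = 1.24e-04), and PDPK1 was lower as well (-0.33, with 39.8% of its 31-base stretches found in other genes). WDR5, CRBN, FKBP1A and SMC3 had log2 fold changes of -0.12 to 0.14 that did not pass the test. ASPM and CENPE were higher (0.40 and 0.44), and the rise of SMC4 (0.16) did not hold when any of 6 of the 7 libraries was left out. Of the genes often used for normalisation, ACTB, PPIA, HPRT1 and TBP had log2 fold changes of -0.12 to 0.17 that did not pass the test, and B2M passed it (log2 fold change 0.24 ± 0.09 (SE), adjusted p = 0.0437), but not when any of 6 of the 7 libraries was left out. Of 14 genes counted (20 listed) next to MYCN on chromosome 2p24, 4 were higher and 3 lower, with a median of -0.02.

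The largest rises in CPM included those of EEF2, HSP90AB1, EEF1A1 and RPL4 (the last 3 with over 30% of their 31-base stretches in other genes), and outside the set-aside genes the 5 largest falls were those of mitochondrially encoded genes. EEF2, an elongation factor, had 3456, 4085 and 4408 CPM against 2282, 2305, 2549.8 and 2504 CPM (log2 fold change 0.72 ± 0.08 (SE), adjusted p = 2.36e-05). Of 62 cytosolic ribosomal protein genes counted (79 listed), 35 were higher and 10 lower, with a median of 0.22. Only 18 of the 62 share less than 10% of their 31-base stretches with other genes and lie outside other genes, and of these 8 were higher and 3 lower.

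**Figure D4:**
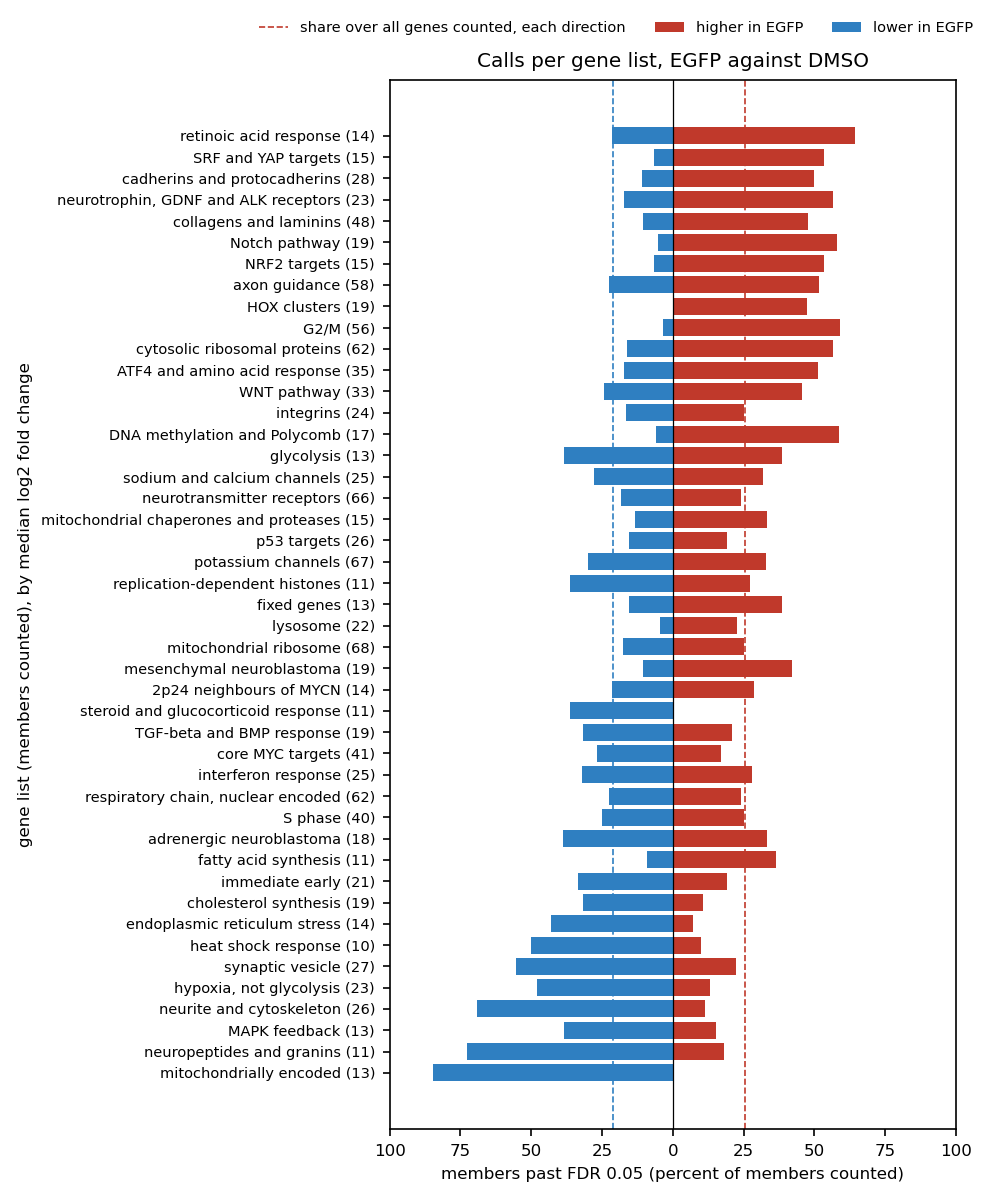
Share of the counted members of each gene list that was called higher (red, to the right) or lower (blue, to the left) in EGFP against DMSO, ordered by the list's median log2 fold change, with the number of members in brackets and the share over all 12610 genes as dashed lines. Mitochondrially encoded, neuropeptide and neurite genes reach furthest left, and retinoic acid, G2/M and Notch genes are among those that reach furthest right.

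The share of genes that fell depended on position. Of genes within 10 kb of a lost or copied gene, 61.0% were past 2-fold lower, of those at 10 to 100 kb 17.1%, and of those over 1000 kb away 2.34% (genes at 1 CPM or more in DMSO and not lost themselves). Outside the set-aside genes, those that lie inside another gene of over 3 times their level were also more often lower: 29.9% of 211 genes inside a gene of the opposite strand and 17.6% of 51 inside a gene of the same strand were past 2-fold lower, against 2.69% of 12348 others. At under 1 CPM the shares were 42.1% for genes inside an opposite-strand gene and 11.0% for the others. The counting is not stated to use strand, so reads of a gene and of its antisense partner cannot be told apart.

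Of 4 runs of at least 3 neighbours that fell past 2-fold together, 2 had this layout. OGN, OMD, ASPN and ECM2, matrix proteins in a row on the minus strand of chromosome 9 (chr9:95145550-95298937, GRCh37), fell by 1.66 to 3.03, and all 4 lie within CENPP, which is read from the plus strand (25.2 and 29.9 CPM in the means). ASPN had 0.77, 0.423 and 0.238 CPM with EGFP and 5.01, 2.99, 3.77 and 4.17 CPM with DMSO. GPR171, P2RY14 and P2RY13, receptors on the minus strand of chromosome 3, fell by 1.55 to 1.91 within MED12L, a plus-strand gene at 63.6 and 67.4 CPM. P2RY12, in the same row, had a log2 fold change of 0.32 that did not pass the test. The other 2 runs did not. ABCA9, ABCA6 and ABCA10, transporter genes that lie side by side on the minus strand of chromosome 17 (chr17:66970629-67240987), fell by 1.34 to 3.18. NBPF14, NBPF20 and NBPF16 on chromosome 1, whose counts are uncertain because 88.1% to 97.0% of their 31-base stretches occur in other genes, fell by 2.40 to 3.23. A run that rose is ACAN, HAPLN3 and MFGE8 on chromosome 15 (chr15:89346667-89456699), neighbours on both strands that rose by 1.64 to 2.23 and do not lie inside each other.

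**Figure D5:**
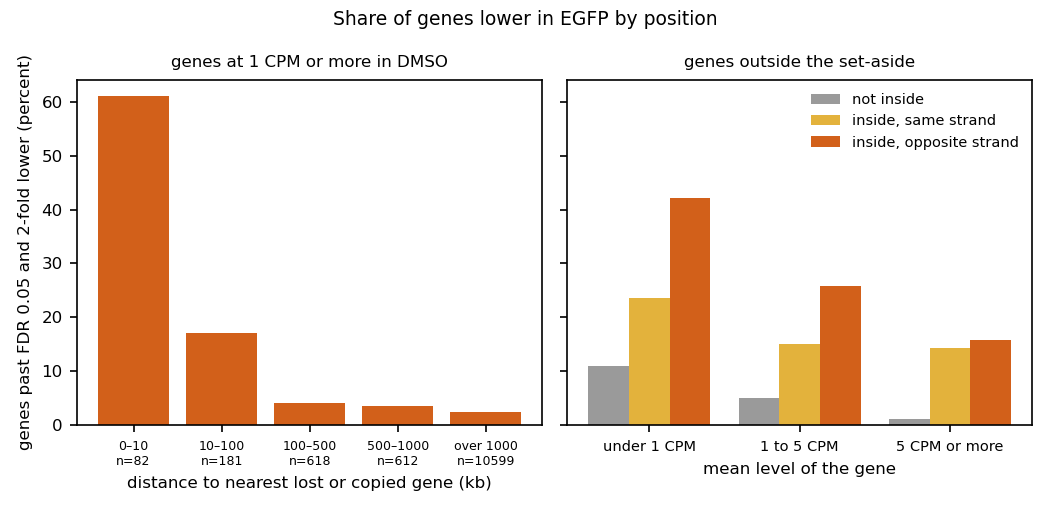
Percent of genes past an adjusted p of 0.05 and 2-fold lower in EGFP, by distance to the nearest lost or copied gene (left, genes at 1 CPM or more in DMSO) and by position inside another gene and mean level (right, genes outside the set-aside). The share falls from 61.0% within 10 kb to 2.34% beyond 1000 kb, and at each level it is highest for genes inside an opposite-strand gene.

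Chromosome arms differed little. Median log2 fold changes of the arms lay between -0.09 on 3q and 0.10 on 20q, apart from 0.21 on 19p, where 178 of 425 genes were higher and 42 lower, and the median of 19p was 0.04 once the trend with GC content was removed. Across the 12610 genes the log2 fold change had a Spearman correlation of 0.24 with GC content, which is a description across genes that share the same 7 libraries.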

How the data were processed

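Total RNA of CHP-134 cells was ribosomal RNA depleted and sequenced by the authors, whose deposited tables hold raw read counts per gene and library. The submitters' processing notes name STAR, featureCounts and DESeq2, with no version, and an hg19 build; strandedness is not given in the sources used here. Identifiers in both tables were joined and filtered with filterByExpr, scaled by TMM and tested with edgeR 4.0.16 (robust quasi-likelihood, R 4.3.3), adjusted by Benjamini-Hochberg over 14093 genes, all 7 libraries in 1 fit with group as the only term. DESeq2 1.42.0 and limma 3.58.1 (voom) served as alternatives. The method was tested on simulated data for this comparison: with 200 changed genes among 13965, edgeR recovered 182, and 8.54% of its calls were false.

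Members, gene lists and comparisons were chosen with earlier results of these data known. The naming rule took the 12 largest called rises and falls with at least 1 CPM and no overlap of groups, up to 4 genes of each list, a fixed set and the 5 largest CPM shifts each way. The set-aside, and a second set of 12 rises and falls without the set-aside genes and without genes that share 10% of their 31-base stretches with others or lie inside a gene of over 3 times their level, were chosen after the data were seen; such genes stayed in the list counts and among members named from the lists; 16810 of the shared identifiers were found in GENCODE v44lift37 (GRCh37). Some items are not reported here. A counting floor of 3 counts covers counting error only. At these totals 1 CPM is over 28 reads.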

Additional observations from a re-analysis of the deposited data

Results flagged for a closer look

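Among the 4 DMSO libraries, 1 library stood apart from the other 3 by Dixon's criterion for 10 of the 238 named genes, where chance flags about 1 group in 20. It was not the same library for each gene, and the value that stood apart was 15.5 CPM for ATF3, 2.37 CPM for C9orf84, 35.7 CPM for CRBN, 18.0 CPM for HEXA, 2896 CPM for MYCN, 6.32 CPM for NEUROD6, 0.861 CPM for NPY, 39.8 CPM for PHGDH, 64.9 CPM for PTTG1 and 1.75 CPM for ZBTB16. Identifiers without a partner entered no comparison, and of these 92 engineered and 314 parental ones reached 1 CPM or more in their own libraries. RPL7A (1147 CPM), KPNA2 (740.4 CPM) and TPI1 (721 CPM) were the highest in the parental table, and CD24 (333 CPM) and RPL10 (215 CPM) in the engineered table.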

How the results depend on the processing

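Against 3463 higher and 3257 lower genes (3211 and 2644 outside the set-aside genes), testing for over 1.5-fold with glmTreat left 618 and 787 (576 and 395), and using DMSO replicates 3 and 4 only left 2039 and 2146 (1887 and 1621). Past 2-fold, requiring 10 counts in every library left 371 genes lower of 810, and 245 of 404 outside the set-aside genes. Leaving the reference-dependent genes out of the fit, an alternative chosen after seeing the data, gave 415 lower past 2-fold. This compares with the 404 outside the set-aside genes in the main fit, since the set-aside genes that fell were no longer counted. All other alternatives kept these counts within 1.5 times. Leaving out 1 library at a time gave 2586 to 4057 higher and 2552 to 4052 lower (2396 to 3719 and 1989 to 3410 outside the set-aside genes), and past 2-fold 557 to 660 higher and 748 to 864 lower (522 to 612 and 353 to 447). With the replicate number as a block, 3737 genes were higher and 3653 lower (3450 and 3018 outside the set-aside genes). Same-numbered libraries correlated at 0.22, -0.02 and 0.21 in their deviations from the group mean. EGFP replicate 1 with DMSO replicate 2, and EGFP replicate 3 with DMSO replicate 4, both reached 0.19. Whether the numbers pair the libraries cannot be told from these values. HPRT1 turned to 0.12 with the GC and length trend removed. Of the values of single named genes under the alternatives, 161 fell out of the threshold, 93 of them under glmTreat, and 11 came past it. The medians of lists moved by more than the spread between replicates in 162 cases and by less in 960, and 32 of the 162 came with the GC and length trend removed. Genes under about 1 CPM rest on few reads per library, and their fold changes are the least certain.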

Other observations

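Some gene groups fixed for this comparison are not described above. Of 17 DNA methylation and Polycomb genes, 10 were higher and 1 lower (median 0.17), with DNMT3B at 32.6, 37.8 and 36.2 CPM in the EGFP libraries and 17.8, 17.1, 18.9 and 20.1 CPM in the DMSO libraries (log2 fold change 0.94 ± 0.08 (SE), adjusted p = 2.97e-06) and EZH2 as the member that fell (-0.36). Of 6 LXR targets, which export cholesterol, 4 were higher and 0 lower, and APOE had 8.99, 12.6 and 13.3 CPM against 2.42, 2.66, 3.24 and 3.09 CPM (log2 fold change 2.02 ± 0.15 (SE), adjusted p = 8.74e-07), with 130.4 to 152 CPM in the OmoMYC libraries. Of 19 cholesterol synthesis genes, 2 were higher and 6 lower (median -0.14). Of 13 genes of the feedback on MAPK signalling, 2 were higher and 5 lower (median -0.31), DUSP4 being lowest (3.51, 3.46 and 3.97 CPM against 12.2, 11.6, 12.7 and 12.8 CPM, log2 fold change -1.75 ± 0.09 (SE), adjusted p = 4.05e-08).

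Of 33 WNT pathway genes, 15 were higher and 8 lower (median 0.19), with the receptor FZD2 at 40.5, 46 and 54 CPM against 15.6, 14.9, 18.3 and 16 CPM and the inhibitor DKK1 at 6.07, 5.04 and 5.84 CPM against 11.6, 12.4, 11.8 and 11.1 CPM. TGFB2, a TGF-beta ligand, had 137, 133 and 126 CPM with EGFP and 314, 309, 286 and 273 CPM with DMSO (log2 fold change -1.16 ± 0.07 (SE), adjusted p = 6.83e-08), and its list was even, with 4 of 19 members higher and 6 lower. Of 67 potassium channel genes, 22 were higher and 20 lower (median 0.06), and KCNB2 had 28.8, 33.4 and 29 CPM against 95.9, 93.8, 93.5 and 95.3 CPM (log2 fold change -1.64 ± 0.07 (SE), adjusted p = 4.21e-09). Of 26 p53 targets, 5 were higher and 4 lower (median 0.06), and CDKN1A had 53.4, 60.1 and 64.2 CPM against 35.5, 37.6, 41.1 and 41.7 CPM (log2 fold change 0.60 ± 0.08 (SE), adjusted p = 1.25e-04).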
